A study of Mus musculus with 6 samples.

Results

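The lysosomal hydrolases are acid-active enzymes that take apart proteins, glycans, sulfated sugars, lipids and phosphate esters inside lysosomes. Here 38 genes for such enzymes and their activators were taken from a list: 14 proteases and peptidases, 11 glycosidases, 5 sulfatases, 5 lipid hydrolases, 2 sphingolipid activator proteins and 1 acid phosphatase. Ensembl gene IDs were matched to symbols with the GENCODE M21 annotation, and all 38 were found among the 27151 genes of the deposited table. The level in the table is FPKM, fragments scaled to exon length in kilobases and to the size of the library. The libraries came from granulosa cells of mice, the steroid-producing cells around the oocyte, released from punctured ovarian follicles in a medium with milrinone, a phosphodiesterase inhibitor. The cells grew for 24 h, spent 12 h without serum and were then kept for 24 h with GSK4112 (3 libraries) or without it (3 control libraries), with fresh medium every 12 h. GSK4112 is a synthetic ligand that activates NR1D1, also called REV-ERBα, a heme-binding nuclear receptor of the circadian clock that lowers transcription of its targets. Per the series' own text the mice were female and treatment was in vivo, which differs from the culture protocol. Strain, age, the vehicle of the control and whether libraries came from separate cultures or animals are not stated in the labels, so the p-values measure the spread between these libraries, which may be technical.

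Most of these enzymes are made in the endoplasmic reticulum, tagged with mannose 6-phosphate in the Golgi and carried to lysosomes by receptors for that tag. There many are cut to their mature form, and several need a helper: saposins, cut from the precursor encoded by Psap, present sphingolipids to their hydrolases, and protective protein/cathepsin A, encoded by Ctsa, stabilises β-galactosidase and neuraminidase 1. Many of the genes share E-box elements bound by the transcription factors TFEB, TFE3 and MITF. In the ovary, granulosa cells take up lipoproteins, secreted proteins and matrix, whose breakdown passes through lysosomes. REV-ERB proteins bind a DNA half-site with the letters AGGTCA next to an A/T-rich stretch.

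Under GSK4112 no hydrolase or activator gene passed the test over all genes. Of 37 members with a mean FPKM of at least 1, limma called 0, with 1.03% of all 12181 genes tested called at an adjusted p under 0.05 (0.410% higher and 0.624% lower). At an unadjusted p under 0.05 there were 9 higher and 2 lower members (24.3% of the members higher, with 10.7% of all genes tested higher and 6.21% lower). Of the members with higher means, Ctsl, encoding the cysteine protease cathepsin L, stood farthest from control at 2.65 times the control mean, then Psap and Scpep1 at 1.52 and 1.50 times. Ctsc, encoding cathepsin C, stood lowest at 0.574 times. On the log2 scale of the test, with 1 added to each FPKM, it lay slightly farther from control than Psap (-0.61 and 0.60). In limma-voom, given below, the log2 changes were -0.80 and 0.595. With the replicate number as a block, which called 6.89% of all genes, 2 members were called higher, Ctsl and Scpep1 (3.07% of all genes), and 1 lower, Ctsc (3.82% of all genes). The block takes same-numbered libraries as pairs. No label states such pairs, and for replicates 2 and 3 the values do not favour them, so calls that need the block are uncertain. In limma-voom on fragments recovered from the FPKM steps, Ctsl and Psap were called higher and no member lower, with 1.40% of all genes called, 0.600% higher and 0.797% lower. With limma's sample weights 7 members were called higher (the 6 named below and Fuca1) and 1 lower, Ctsc, with 6.81% of all genes called, 3.86% higher and 2.96% lower.

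The replicate 1 libraries stood apart in both groups. Depth ran from 16559256 to 18158274 fragments per library. Of 17 granulosa markers 15 had a mean of at least 1, among them Foxl2 at 29.9 to 64.4 FPKM, while Cyp19a1, the aromatase gene, was at 0.165 FPKM at most. The granulosa list summed to 3462 to 4038 FPKM in control and, without overlap, to 2595 to 3429 in GSK4112. Inhba, Inhbb, Fst, Hsd17b1 and Cyp11a1 lay lower in every treated library than in any control, and Kitl and Gata4 higher, named after their values were seen. The part of this in the hydrolase values was not tested. Summed over 28 genes of mitosis, control replicates 1, 2 and 3 held 379, 93.2 and 103 FPKM and GSK4112 replicates 286, 58.1 and 52.3 FPKM. The sum was thus higher in replicate 1 of both groups and lower in GSK4112 in each same-numbered pair. The theca and stroma list summed to 271 and 146 FPKM in the replicate 1 libraries and 55.7 to 88.4 in the others. Most of this was Acta2, at 234 and 125 FPKM in the replicate 1 libraries and 44.5 to 76.9 in the others. The theca genes Cyp17a1 and Insl3 were at most 0.0555 and 0.190 FPKM. The surface epithelium list summed to 121, 59.55 and 48.5 FPKM in control replicates 1, 2 and 3 and to 48.8, 30.4 and 28.5 in GSK4112. That list was thus lower in GSK4112 in each same-numbered pair, mostly through Krt8 and Krt18. Epcam, of the same list, was higher (4.02 to 4.97 FPKM in control and 6.32 to 12.3 in GSK4112). Of 16 macrophage and leukocyte markers 3 had a mean of at least 1, and the list summed to 8.76 to 45.6 FPKM in control and 19.3 to 43.2 in GSK4112. Its largest gene, Lyz2, was at 34.2 and 30.1 FPKM in the replicate 1 libraries and at 4.29 to 12.4 in the rest. Of the same list, Ptprc and Adgre1 were at most 0.0678 and 0.130 FPKM. Tyrobp was at 0.721 to 1.65 FPKM in control and 0.905 to 2.40 in GSK4112. Csf1r was at 0.258 to 0.823 and 0.294 to 1.07 FPKM, and both were highest in the replicate 1 libraries and higher in GSK4112 in each same-numbered pair. C1qa went the other way at its highest, with at most 0.265 FPKM in control and 0.057 in GSK4112. The part of such cells in the hydrolase values was not tested. In such bulk libraries, fewer cells of a type and less RNA per cell cannot be told apart. Leaving out both replicate 1 libraries, which leaves 2 against 2, limma called 6 members higher (Ctsa, Ctsl, Scpep1, Neu1, Man2b1 and Psap) and 0 lower, with 6.92% of all genes called, 3.17% higher and 3.75% lower.

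Promoter sequences are shown first for Psap, the most abundant member, and for Scpep1 and Ctsc, called in opposite directions with the replicate block. The adjusted p of Scpep1 and Ctsc in limma without the block was 0.183 and 0.103. The letters are the bases before the RefSeq start on GRCm38.p6 that lie outside the gene's own exons, written 5′ to 3′ on the gene's strand, with AGGTCA on either strand in capitals.
Psap: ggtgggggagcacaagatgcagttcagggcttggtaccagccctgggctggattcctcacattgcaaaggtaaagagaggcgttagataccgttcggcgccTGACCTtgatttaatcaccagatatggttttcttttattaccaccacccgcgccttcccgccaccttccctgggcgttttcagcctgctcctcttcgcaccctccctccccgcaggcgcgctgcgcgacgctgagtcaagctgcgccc
Scpep1: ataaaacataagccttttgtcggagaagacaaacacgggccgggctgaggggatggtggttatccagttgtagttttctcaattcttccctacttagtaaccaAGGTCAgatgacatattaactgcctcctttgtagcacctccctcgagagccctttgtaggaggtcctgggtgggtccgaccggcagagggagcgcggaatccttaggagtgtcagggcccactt
Ctsc: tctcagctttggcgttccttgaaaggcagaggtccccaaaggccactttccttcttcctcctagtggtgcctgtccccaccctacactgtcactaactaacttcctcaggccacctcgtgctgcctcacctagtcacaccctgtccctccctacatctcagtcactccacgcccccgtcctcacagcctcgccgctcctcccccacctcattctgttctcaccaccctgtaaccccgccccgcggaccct
The stretches lie at chr10:60277378-60277626 (plus strand), chr11:88955466-88955692 (minus strand) and chr7:88277835-88278084 (plus strand). The Psap and Scpep1 promoters each hold 1 half-site, starting 149 and 147 bases before the start, and the Ctsc promoter holds none in this window. The window of Ctsl, which is not shown, holds none either.

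The E-box CACGTG was searched in the 250 bases before the start of the 34 members with a RefSeq window, 1 window a member and the one nearest to the GENCODE start. It was found in 9 members (26.5%), beside 6.02% of all 32851 windows of that length. Its longer form TCACGTGA, which contains the E-box and is the core of the element bound by TFEB, was in 2 members (5.88%), Gla and Ctsd, beside 0.785% of all windows. AGGTCA, searched on both strands, was in 11 members (32.4%) and in 14.0% of all windows. Among members with a window, it was in 3 of 8 whose GSK4112 libraries all lay above control (Ctsa, Scpep1 and Psap). It was in 8 of 24 whose groups overlapped. These shares were not matched for base composition. The stretches below are shown because they carry that box outside the gene's exons or, for the proximal stretch of Ctsd, the longer form in a stretch that overlaps one, with the box in capitals.
Gla, distal: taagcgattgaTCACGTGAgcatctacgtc
Gla, proximal: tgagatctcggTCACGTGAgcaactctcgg
Ctsd, distal: tccccCACGTGacctgtatccag
Ctsd, proximal: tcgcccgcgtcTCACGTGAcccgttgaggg
Glb1: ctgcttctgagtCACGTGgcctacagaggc
Ctsf: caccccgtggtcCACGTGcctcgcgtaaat
Gaa: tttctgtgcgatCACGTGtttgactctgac
They lie at chrX:134601215-134601244, chrX:134601182-134601211, chr7:142388055-142388077 and chr7:142387908-142387937 on the minus strand and at chr9:114401018-114401047, chr19:4855074-4855103 and chr11:119267811-119267840 on the plus strand. The other members with CACGTG were Arsa, Naglu, Sgsh and Ctsl. The Ctsl window lies inside the gene's outermost GENCODE transcript, 370 bases from its start. The log2 change of the 9 members with CACGTG ran from -0.24 to 1.35 with a median of 0.14, and that of the 24 tested members with a window and no CACGTG from -0.61 to 0.60 with a median of 0.19. Of the 9 members whose GSK4112 libraries all lay above control, 8 had a window, and Ctsl was the 1 of them with CACGTG in the window counted. Ctsa, also among these members, has a further RefSeq window whose start lies 900 bases from the GENCODE start. That window holds TCACGTGA 13 bases before its start, and a further window of Lgmn holds CACGTG 49 bases before its start. These further windows were not counted for the members, while the shares of all windows count every window.

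Among the proteases, mean levels ran from below 1 FPKM for Ctsk to above 300 for Lgmn. Lgmn, the gene of legumain, an asparaginyl endopeptidase that activates other lysosomal proteases, had the highest mean, with 268, 440 and 360 FPKM in control replicates 1, 2 and 3 and 324, 360 and 375 in GSK4112. These groups overlapped, and Lgmn differed by 0.01 on the log2(FPKM + 1) scale (95% interval -0.43 to 0.46, adjusted p = 0.978 in limma), a sign that turned with median-of-ratios scaling (-0.0483). Both replicate 1 libraries held the lowest Lgmn values of their groups. FPKM here divides by all annotated exons of a gene (6489 bases for Ctsl), so levels of different genes also depend on which transcripts are annotated, and transcript usage was not measured.

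**Figure D1:**
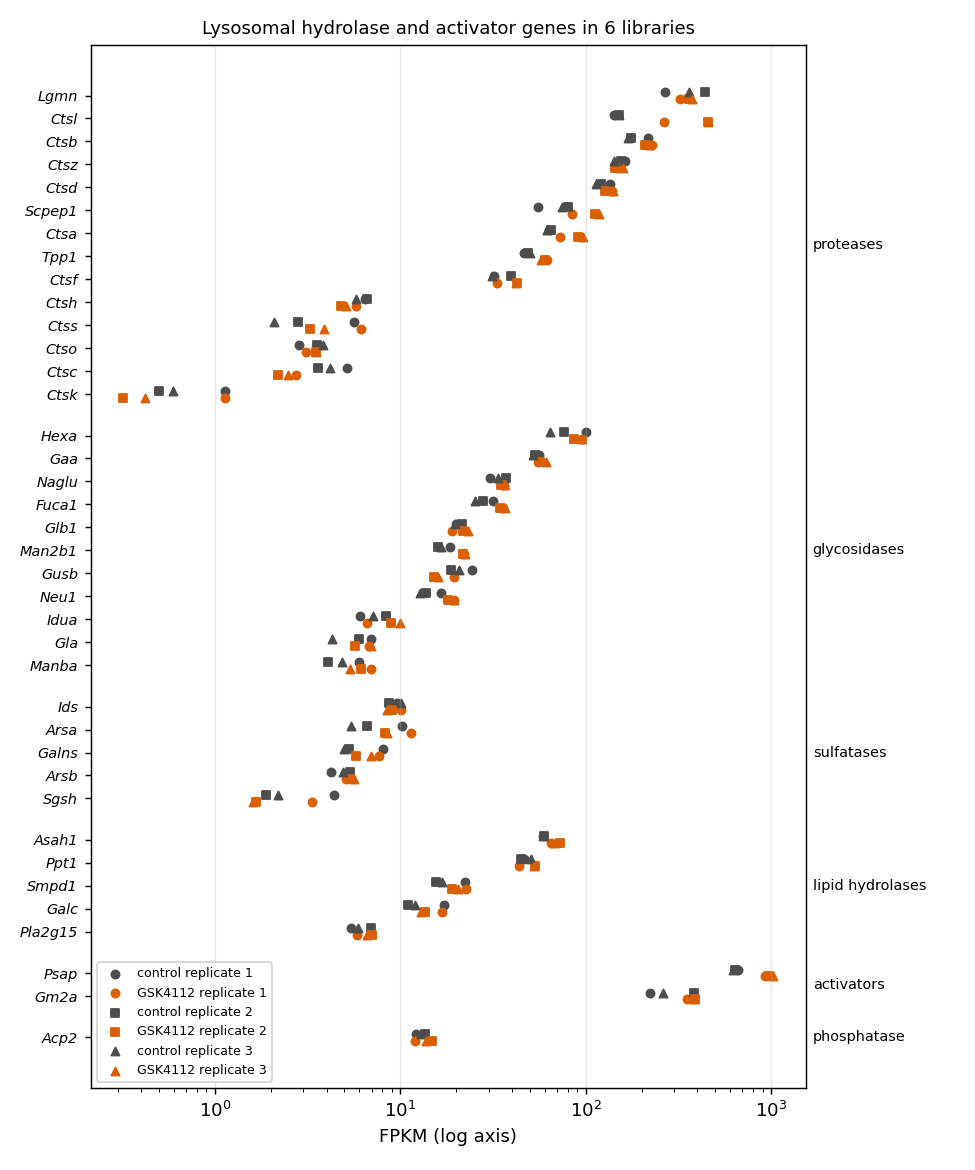
FPKM of the 38 genes in each library on a log axis, grouped by enzyme class and ordered by mean. Grey symbols are the 3 control libraries and orange symbols the 3 GSK4112 libraries, with circles, squares and triangles for replicates 1, 2 and 3. Psap lies at the top of the range (624 to 1025 FPKM) and Ctsk at the bottom (0.320 to 1.13).

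Ctsl (ENSMUSG00000021477, GRCm38 chromosome 13, 64359337 to 64370890, minus strand) encodes an endopeptidase of the papain family. Its level was 142, 151 and 150.5 FPKM in control replicates 1, 2 and 3, and 263, 457 and 454 FPKM in GSK4112 replicates 1, 2 and 3. The control libraries lay close together, all GSK4112 libraries lay above them, and GSK4112 replicate 1 lay well below the other two. The log2 change was 1.35 ± 0.219 (SE), with a 95% interval of 0.83 to 1.88 and an adjusted p = 0.0507 in limma, just outside the threshold. With the replicate block its adjusted p was 0.0107, in limma-voom 0.0376 and without both replicate 1 libraries 0.0017, and over all alternatives it ran from 0.0017 to 0.2418. Behind these values stood 16247 to 51227 fragments per library. Of the 75-base words in Ctsl transcripts, 5.22% also occur in transcripts of other genes, mostly the overlapping pseudogene Gm49230. Exons of the antisense gene Gm47123 on the opposite strand overlap 26.8% of the Ctsl exon length, and whether the counting used strand is not stated.

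Scpep1 (ENSMUSG00000000278, chromosome 11, 88924020 to 88955465, minus strand) encodes retinoid-inducible serine carboxypeptidase. It was at 55.6, 80.3 and 74.1 FPKM in control replicates 1, 2 and 3 and at 84.9, 113 and 118 FPKM in GSK4112. Within each group replicate 1 was the lowest, and GSK4112 replicate 1 lay only just above control replicate 2. The same-numbered pairs differed by 0.60, 0.48 and 0.66 on the log2(FPKM + 1) scale. The log2 change of 0.58 ± 0.181 (SE) had an adjusted p = 0.183 in limma without the block and 0.0201 with it.

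Ctsc (ENSMUSG00000030560, chromosome 7, 88278085 to 88310888, plus strand) encodes cathepsin C, a dipeptidyl peptidase that activates serine proteases of immune cells. Its control libraries were at 5.14, 3.60 and 4.19 FPKM and its GSK4112 libraries at 2.74, 2.19 and 2.49 FPKM. All treated libraries lay below all controls at this low level, which rested on 211 to 542 fragments. The log2 change was -0.61 ± 0.138 (SE), with an adjusted p = 0.103 in limma without the block and 0.0257 with it. Without both replicate 1 libraries it was 0.0591.

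In 2 further proteases the treated libraries all lay above control, and neither passed the test with or without the block. Ctsa, the gene of the protective protein named above, was at 63.1, 64.7 and 61.8 FPKM in control and 72.7, 90.6 and 96.5 in GSK4112, a log2 change of 0.44 ± 0.117 (SE; adjusted p = 0.138 in limma). Part of its exon length overlaps exons of Pltp (10.5%) and of Neurl2 on the opposite strand, and whether the counting used strand is not stated. Tpp1, the gene of tripeptidyl peptidase, was at 46.5, 48.6 and 49.9 FPKM in control and 61.7, 60.2 and 57.5 in GSK4112, with a smaller spread in both groups (0.30 ± 0.0737 SE; adjusted p = 0.117). Ctsh, an aminopeptidase gene, was at 5.78 to 6.62 FPKM in control and 4.79 to 5.76 in GSK4112, so the groups were parted by a narrow gap. Its adjusted p was 0.31 without the block and 0.213 with it.

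The remaining proteases overlapped between groups. Ctsb and Ctsd, genes of the abundant endopeptidases cathepsin B and D, had means of 188 ± 26.2 and 219 ± 10.3 FPKM and of 123 ± 11.0 and 135 ± 7.64 FPKM (SD, n = 3), control first. Ctsz, a carboxypeptidase gene, was at 153 ± 10.7 and 150.1 ± 8.49 FPKM, and its interval on the log2 scale of -0.25 to 0.20 bounds the difference in either direction. Ctsf was at 34.2 ± 4.54 and 39.5 ± 5.27 FPKM and Ctso at 3.42 ± 0.521 and 3.38 ± 0.229 FPKM, both genes of papain-family cathepsins. Ctsd transcripts share 31.3% of their words with the overlapping gene Gm49369, and its value is uncertain. Ctss, which is known from antigen-presenting cells, was highest in the replicate 1 libraries of both groups (5.60 and 6.14 FPKM, with 2.08 to 3.86 in the others), as was Lyz2, and the part of such cells in it was not tested. Ctsk, the collagen-degrading cathepsin of osteoclasts, was below the filter of a mean FPKM of 1 and was not tested, with 8 to 31 fragments per library. The 6 osteoclast markers in the table summed to 1.37 to 3.37 FPKM in control and 1.72 to 2.59 in GSK4112, mostly Acp5 (0.595 to 2.12 FPKM) and Atp6v0d2 (0.288 to 1.13 FPKM), while Calcr, Mmp9 and Dcstamp were at most 0.0617 FPKM. Their part in the Ctsk level was not tested.

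**Figure D2:**
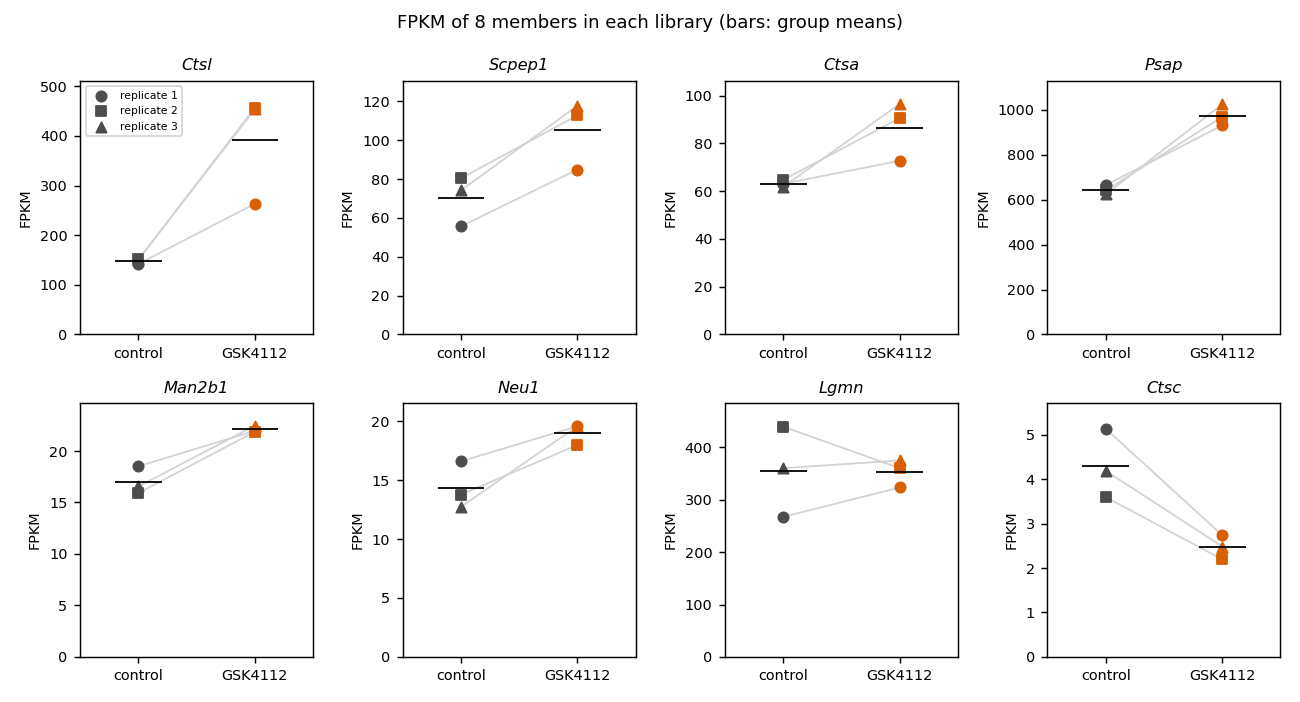
FPKM of 8 genes in each library, with control on the left and GSK4112 on the right of each panel. Circles, squares and triangles are replicates 1, 2 and 3, grey lines join libraries of the same number, and black bars are group means. Ctsl, Scpep1, Ctsa, Psap, Man2b1 and Neu1 lie higher in every GSK4112 library than in any control, Ctsc lies lower, and the groups of Lgmn overlap.

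Of 11 glycosidases none passed the test, and 10 had a log2 change above 0 (median 0.20, with 0.0543 over all genes tested). Hexa, the α subunit of β-hexosaminidase, which cuts gangliosides with the help of the GM2 activator, had the highest level, with 100.3, 76.8 and 64.3 FPKM in control and 95.6, 86.7 and 95.5 in GSK4112. Its control libraries spread over the whole range of the treated ones. In 3 glycosidases all treated libraries lay above control: Man2b1, Neu1 and Fuca1. Man2b1, the gene of lysosomal α-mannosidase, was at 18.5, 15.9 and 16.6 FPKM in control and 21.96, 21.9 and 22.5 in GSK4112, with an adjusted p = 0.1 (log2 change 0.36 ± 0.0819 SE, limma). Neu1, the neuraminidase that works in a complex with the Ctsa product, was at 16.6, 13.8 and 12.7 FPKM in control and 19.6, 17.99 and 19.6 in GSK4112 (adjusted p = 0.15). For both the adjusted p missed the threshold with the block (0.0602 and 0.0683) and passed it without the replicate 1 libraries (0.0401 and 0.042).

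Fuca1, the fucosidase gene, was at 25.3 to 31.5 FPKM in control and 34.7 to 36.7 in GSK4112 (adjusted p = 0.161). Gusb, the β-glucuronidase gene often used as a reference gene, was the glycosidase with a lower mean, at 24.3, 18.8 and 20.8 FPKM in control and 19.4, 15.2 and 15.9 in GSK4112. Its groups overlapped through a single library, and its 3 same-numbered pairs differed by -0.31, -0.29 and -0.37 on the log2 scale. The adjusted p of Gusb was 0.286 in limma and 0.0654 with the block, so neither fit called it. Glb1, encoding the β-galactosidase that the Ctsa product protects, was at 20.4 ± 0.854 and 21.3 ± 2.13 FPKM (mean ± SD, n = 3 per group). The means of Gaa, the acid α-glucosidase that degrades glycogen, were 53.7 ± 1.90 and 57.7 ± 2.88 FPKM. Those of the heparan sulfate enzyme genes were 33.8 ± 3.38 and 36.1 ± 0.894 FPKM for Naglu and 7.19 ± 1.17 and 8.48 ± 1.67 FPKM for Idua. Gla, the α-galactosidase gene, was at 5.77 ± 1.36 and 6.45 ± 0.677 FPKM and Manba, the β-mannosidase gene, at 4.97 ± 0.968 and 6.12 ± 0.801 FPKM. In all of these the groups overlapped.

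**Figure D3:**
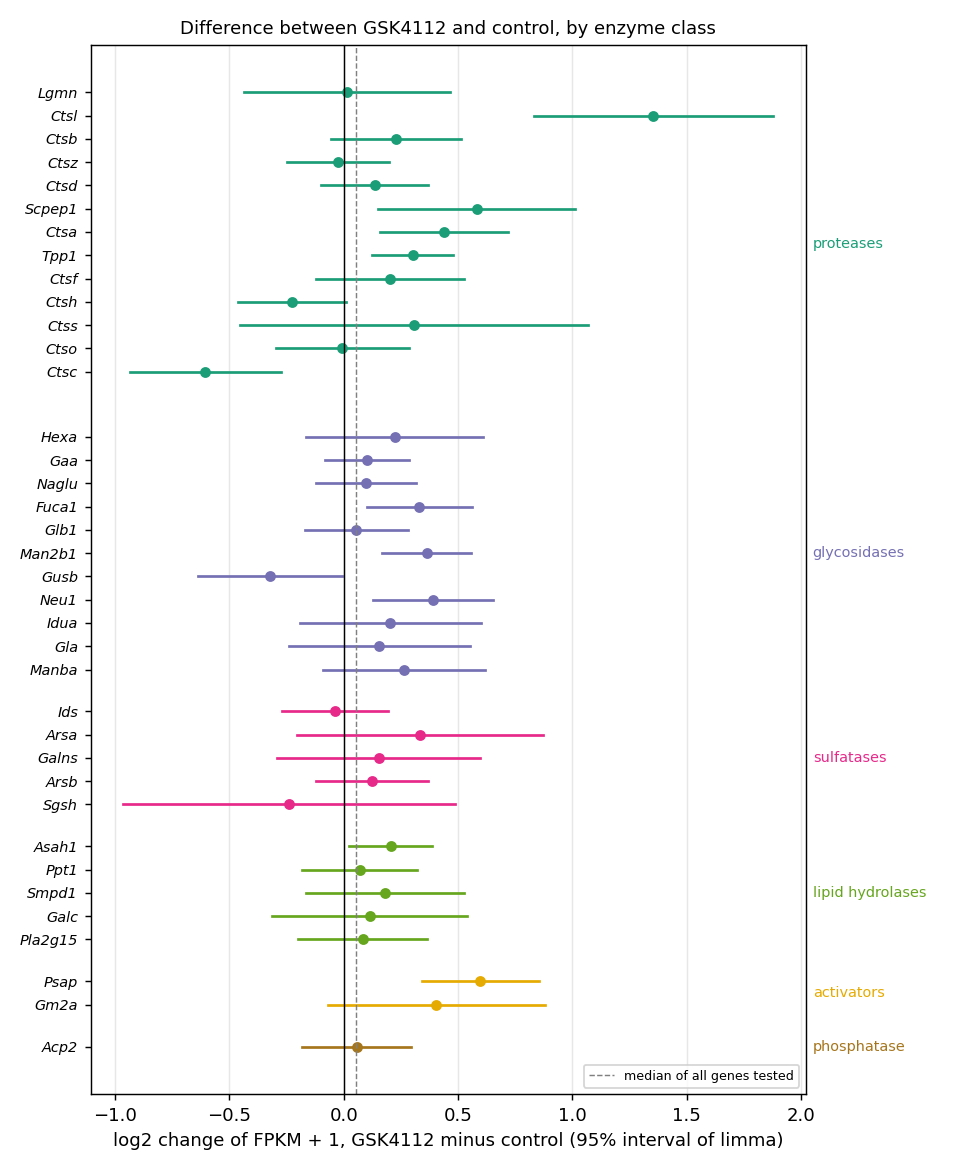
Log2 change of FPKM + 1 (GSK4112 minus control) of the 37 tested genes, with dots for limma's estimate and bars for its 95% interval, coloured by class. The dashed line is the median of all genes tested (0.0543). The interval of Ctsl (0.83 to 1.88) lies farthest to the right and that of Ctsc (-0.94 to -0.28) lies to the left of 0.

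The sulfatases, which remove sulfate from glycosaminoglycans and sulfatides, were low and none was parted by treatment. Ids, the iduronate sulfatase gene, had the highest mean of the 5, with 9.63, 8.69 and 10.05 FPKM in control and 10.04, 9.06 and 8.46 in GSK4112, and its interval of -0.27 to 0.19 on the log2 scale spanned 0. In Arsa, Galns and Sgsh the highest 2 of 6 libraries were both replicate 1 libraries. For Arsa, the arylsulfatase that acts on sulfatides, these were 10.2 and 11.5 FPKM beside 5.39 to 8.44 in the others, and for Sgsh, the sulfamidase gene, 4.42 and 3.34 beside 1.60 to 2.18. Galns, which desulfates keratan sulfate, was at 6.11 ± 1.73 and 6.80 ± 0.982 FPKM and Arsb, which desulfates dermatan sulfate, at 4.84 ± 0.552 and 5.35 ± 0.255 FPKM. The median log2 change of the class was 0.12, and its adjusted p ranged from 0.497 for Arsa to 0.871 for Ids. The largest overlap with exons of an opposite-strand gene was 32.3% of exon length for Arsb, 21.6% for Sgsh and 18.8% for Arsa.

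Over all members, both replicate 1 libraries were the highest 2 of 6 in 7 (Ctss, Hexa, Arsa, Galns, Sgsh, Smpd1 and Galc) and the lowest 2 in 5 (Ctso, Lgmn, Idua, Pla2g15 and Acp2). In all genes tested these shares were 18.1% and 12.4%.

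All 5 lipid hydrolases had a log2 change above 0, between 0.07 and 0.21, and none passed the test with or without the block. Asah1, the acid ceramidase gene, was the most abundant, with 59.0, 59.9 and 58.6 FPKM in control and 64.7, 72.3 and 68.5 in GSK4112. Its control libraries were nearly equal and all treated ones lay above them, but the log2 change of 0.21 ± 0.076 (SE) had an adjusted p = 0.243 in limma. Ppt1, a thioesterase that removes palmitate from proteins, was at 47.2 ± 2.95 and 49.7 ± 5.399 FPKM. Smpd1, the acid sphingomyelinase gene, was at 18.2 ± 3.64 and 20.6 ± 1.82 FPKM. Galc, the galactosylceramidase gene, was at 13.4 ± 3.30 and 14.4 ± 2.12 FPKM and Pla2g15, a lysosomal phospholipase gene, at 6.09 ± 0.805 and 6.50 ± 0.639 FPKM. Acp2, the lysosomal acid phosphatase gene, was at 12.1, 13.6 and 12.9 FPKM in control and 11.9, 14.8 and 13.7 in GSK4112, with an interval of -0.18 to 0.30 on the log2 scale.

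The 2 activator genes were among the most abundant members. Psap (ENSMUSG00000004207, chromosome 10, 60277627 to 60302597, plus strand), which encodes the precursor of the 4 saposins, ranked 24th of all 27151 genes by mean FPKM. It was at 665, 641 and 624 FPKM in control and at 931, 969 and 1025 FPKM in GSK4112. Both groups were tight and the gap between them was wider than either group's range. The log2 change was 0.60 ± 0.106 (SE), with a 95% interval of 0.34 to 0.85 and an adjusted p = 0.061 in limma. The replicate block did not call it (adjusted p = 0.0587), limma-voom did (0.0396), as did the fit without both replicate 1 libraries (0.0368), and over all alternatives the adjusted p ran from 0.0175 to 0.3617. Gm2a, the GM2 activator that hands gangliosides to β-hexosaminidase, was at 224, 383 and 262 FPKM in control and 351, 386 and 386 in GSK4112. Control replicate 2 lay within the treated range, and the adjusted p was 0.363.

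Summed over all 38 members, control libraries held 2548, 2780 and 2500 FPKM and GSK4112 libraries 3181, 3491 and 3629 FPKM. That was 0.858 to 0.911% of all FPKM in control and 1.086 to 1.201% in GSK4112. Psap made up 40.2% of the difference between the group means of the sum and Ctsl 29.5%, while the other 36 genes made up the rest. Without Ctsl the sums were 2349 to 2629 FPKM in control and 2918 to 3174 in GSK4112. By class, the mean sum in GSK4112 was 1.45 times that of control for the activators, 1.29 times for the proteases, 1.12 times for the glycosidases, 1.11 times for the lipid hydrolases and 1.07 times for the sulfatases. These sums are descriptions without a test.

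In counts, 30 of 37 tested members (81.1%) had a log2 change above 0, with 60.9% of all genes tested, and their median was 0.16, with 0.0543 over all genes. All GSK4112 libraries lay above all control libraries in 9 members (24.3%; 15.7% of all genes tested) and below in 2 members (5.41%; 7.90% of all genes). Those above were Ctsa, Ctsl, Tpp1, Scpep1, Man2b1, Neu1, Fuca1, Asah1 and Psap, and those below Ctsc and Ctsh. An exact permutation test (2-sided) gave p = 0.1 for each of these, and 3 libraries against 3 cannot give a smaller one. The 3 same-numbered pairs all differed upward in 19 of 37 tested members and downward in 4 of 37, beside 29.8% and 18.6% of all genes. No label states these pairs.

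Genes of the lysosome outside the hydrolases were taken from 5 further lists. Of 19 tested genes of lysosomal membrane proteins, 4 rose in limma, Gpnmb, Mcoln1, Npc1 and, named after its values were seen, Slc17a5, and none fell (0.410% of all genes rose). Mcoln1, the gene of the calcium channel TRPML1, was at 8.77, 8.19 and 8.77 FPKM in control and 13.8, 15.3 and 15.0 in GSK4112 (log2 change 0.71 ± 0.0793 SE, adjusted p = 0.0224). Slc17a5, the gene of the sialic acid exporter that empties the lysosome of the product of neuraminidase, rose from 11.1 ± 0.734 to 16.5 ± 0.86 FPKM (mean ± SD, n = 3 per group; adjusted p = 0.0477 in limma). Npc1, which exports cholesterol, rose to 15.5 ± 1.30 FPKM and Gpnmb, a membrane glycoprotein, to 28.6 ± 1.69 FPKM (adjusted p = 0.0377 and 0.0384). With the block 8 genes of this list were called higher and none lower. With control replicate 2 or 3 or GSK4112 replicate 2 or 3 left out 0 of the list were called, and with either replicate 1 library left out 2. The median log2 change of the list was 0.43. Cd68, which is also among the macrophage markers, was at 2.20 to 4.47 FPKM in control and 4.56 to 5.69 in GSK4112 and was not called (adjusted p = 0.201 in limma, and 0.0279 without both replicate 1 libraries). The part of macrophages in these values was not tested. Whether the membrane list differed from the hydrolases was not tested.

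**Figure D4:**
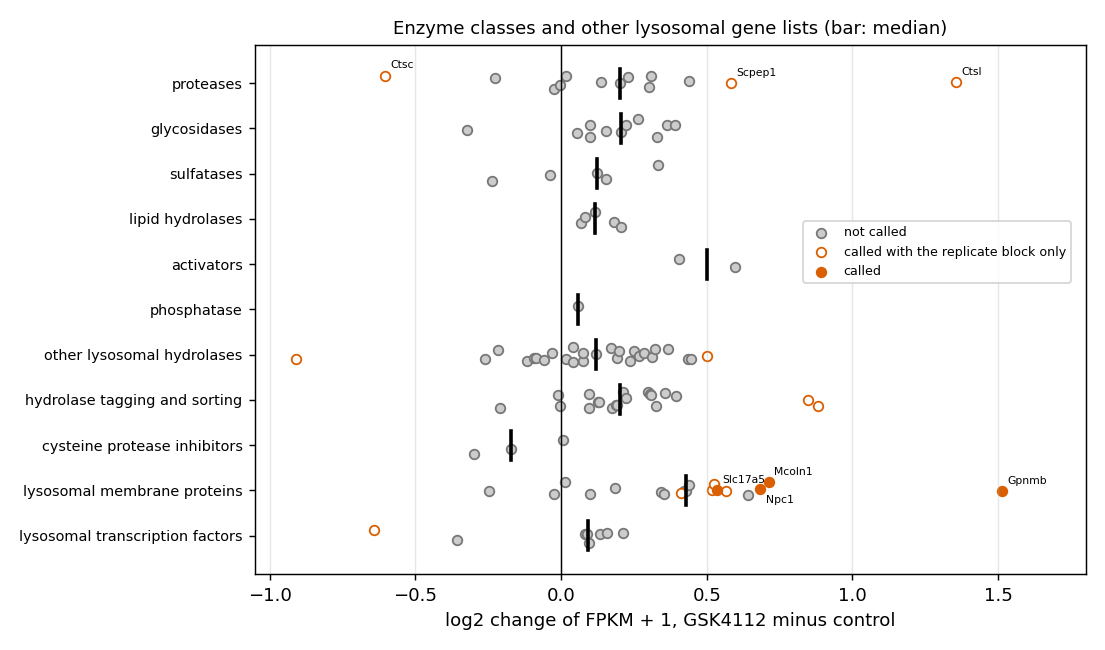
Log2 change of FPKM + 1 (GSK4112 minus control) of each tested gene, one row per enzyme class or other lysosomal list, with the median as a bar. Filled orange points were called by limma, open orange points with the replicate block only, and grey points by neither. The 4 filled points are all lysosomal membrane proteins, and the block-only points among the hydrolase classes are Ctsl, Scpep1 and Ctsc.

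The other lists held no gene that passed limma without the block. Of 20 genes for tagging and sorting of hydrolases, 17 had a log2 change above 0 (median 0.20; 60.9% of all genes lay above 0). At an unadjusted p under 0.05 limma gave 7 higher and 1 lower, beside 10.7% and 6.21% of all genes. M6pr, the small mannose 6-phosphate receptor, was at 69.7 ± 2.92 and 60.1 ± 2.02 FPKM (adjusted p = 0.233) and Creg1, a secreted lysosomal glycoprotein gene, at 42.0 ± 9.29 and 77.3 ± 9.14 FPKM (adjusted p = 0.0805). With the block Creg1 was called higher (adjusted p = 0.0082 in limma). Among 27 tested hydrolases outside the 38, Pld3 was at 43.9 and 56.7 FPKM and Rnaset2a at 39.6 and 47.0 FPKM on average, neither called. At an unadjusted p under 0.05 this list had 6 higher and 1 lower, beside the same shares of all genes (17.0% in either direction). With the block Smpdl3b, a phosphodiesterase gene, was called lower (30.9 ± 7.16 and 15.7 ± 0.63 FPKM). Cd68, Smpdl3b, Tfeb, Tfe3 and Mitf were named after their values were seen.

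Of 3 tested inhibitors of cysteine proteases, Cst3, the gene of cystatin C, a secreted inhibitor of cathepsins, was at 315, 305 and 283 FPKM in control and 227, 236 and 271 in GSK4112. Every treated library lay below every control, and the adjusted p was 0.228 in limma. Cstb was at 85.8 and 86.2 FPKM on average. Of 8 tested genes of transcription factors that bind E-boxes or regulate lysosomal genes, Usf1 was at 32.9 and 36.8 FPKM and Myc at 77.3 ± 3.74 and 49.9 ± 11.0 FPKM, not called without the block (adjusted p = 0.11) and called lower with it (0.0347). Tfeb and Tfe3 were at 1.66 and 1.85 and at 5.71 and 6.13 FPKM, and Mitf was below the filter in both groups (0.478 and 0.822 FPKM) and was not tested. Its libraries were at 0.462, 0.496 and 0.475 FPKM in control and 0.897, 0.780 and 0.789 in GSK4112. These groups did not overlap, at a low level that rested on 49 to 94 fragments.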

How the data were processed

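RNA sequencing of 6 libraries was analysed, 3 control and 3 GSK4112, grouped by their titles. The deposited values are FPKM made by the authors, with the build GRCm38 per the submitters' processing notes. No label or header names the aligner, counter, annotation release or strand setting. Symbols, coordinates and exon lengths came from GENCODE M21 (27098 of 27151 IDs matched). FPKM times exon length was a whole number of fragments within 0.01 for 92.8 to 93.1% of values below 500 fragments, which gave the depths. The test was limma (version 3.58.1, R 4.3.3) on log2(FPKM + 1) over 12181 genes whose mean FPKM reached 1, using a variance trend, 2-sided, Benjamini-Hochberg adjusted p under 0.05 over all genes. That scale understates changes of low genes. The deviations of same-numbered libraries from their group means correlated at 0.665, 0.326 and 0.213 over genes, each above 0.1, so by that limit the numbers were taken as pairs, although no label states a pairing. For replicates 2 and 3 the values do not favour this pairing: control replicate 3 correlated with GSK4112 replicate 2 at 0.530 and control replicate 2 with GSK4112 replicate 3 at 0.357. All members are named. Of the other lists, up to 3 called genes in each direction were named, or the 2 most abundant. Members and lists were chosen with earlier results of these data known. Alternatives were other pseudocounts, filters, scalings, limma settings, the block, limma-voom, a stricter threshold and libraries left out. The script was tested on simulated data. Promoter sequences are from RefSeq, GRCm38.p6. Some genes of the other lists are not reported here by name.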

Additional observations from a re-analysis of the deposited data

How the results depend on the processing

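The count of called genes over all genes (126) became 26 without a filter, 6 at an adjusted p under 0.01, 839 with the replicate block, 830 with sample weights and 837 without both replicate 1 libraries, and 0 to 149 with each library left out in turn. It was 0 when replicate 3 of either group or GSK4112 replicate 2 was dropped, and 8 when control replicate 2 was. The count of members called higher (0) became 1 with limma robust or without the trend, 2 with TPM scaling, a mean FPKM of at least 5, limma-voom or the replicate block, 6 without both replicate 1 libraries, 7 with sample weights, and 0 to 1 with a library left out. Over all genes, limma robust called 128, limma without the trend 112, TPM scaling 112 and a mean of at least 5 called 132. The member called by limma robust and without the trend was not Ctsl (adjusted p = 0.0533 and 0.0571). That of members called lower (0) became 1 with the block and with sample weights, and 0 with each library left out. The fits without both replicate 1 libraries rest on 2 libraries a group. Among lysosomal membrane proteins (4) the count was 0 at an adjusted p under 0.01, 1 without a filter, 8 with the block, 11 with sample weights or without both replicate 1 libraries, and 0 to 2 with a library left out. Alternatives for the 5 other lists were added after the data were seen. For tagging and sorting (0) it was 1 with limma-voom, quantile normalization or a mean of at least 5, 2 with the block or without both replicate 1 libraries, 4 with sample weights and 0 to 1 with a library left out. For the other hydrolases (0) these were 1 with a mean of at least 5, 2 with the block or without both replicate 1 libraries, 4 with sample weights and 0 to 1, and for transcription factors (0) 1 in each of the block, sample weights and the fit without both replicate 1 libraries, and 0 to 1. Of 699 alternative values of the members' log2 changes 22 turned sign, in 9 members whose log2 changes ran from that of Sgsh (-0.24) to that of Gla (0.16), and 28 members kept their sign throughout. Lgmn was at -0.0483 with median-of-ratios scaling and with sample weights, and at -0.1142 without both replicate 1 libraries. Ctsz was at 0.0211 with sample weights and 0.0349 without both replicate 1 libraries, and with median-of-ratios scaling Glb1 was at -0.006 and Acp2 at -0.002. With a library left out the ranges were -0.1756 to 0.1817 for Lgmn, -0.0776 to 0.0222 for Ctsz, -0.1034 to 0.0652 for Ctso, -0.0099 to 0.2846 for Gla, -0.0067 to 0.1309 for Glb1, -0.0983 to 0.0134 for Ids, -0.4785 to 0.0413 for Sgsh, -0.0021 to 0.2942 for Galc and -0.009 to 0.136 for Acp2. The cause of these differences was not tested. With 3 libraries a group, and Ctsk at 8 to 31 fragments, small differences were not detectable at this depth.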
